A study of Mus musculus with 41 samples.

Results

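The serum amyloid A genes of the mouse, Saa1, Saa2, Saa3 and Saa4, are described here in lung and liver after inhalation of nanosized titanium dioxide. They were found as every spot of the mRNA arrays whose gene name was one of these names, which gave 4 of 27962 gene names and 6 of 41174 probes, each printed as 1 spot. Saa1 and Saa4 had 2 probes each, which were kept apart. The members were chosen by their measured lung difference, the log2 ratio of exposed against control mice, so that difference is given as a description with no test. The liver exposure difference and the difference between the organs of control mice were not part of that choice and were tested.

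Serum amyloid A proteins are small apolipoproteins that travel on high-density lipoprotein (HDL). Saa1 and Saa2 encode the main acute-phase forms, which hepatocytes release into blood when interleukin-6, interleukin-1 and tumor necrosis factor reach the liver in infection or tissue injury. Saa3 encodes a form made largely outside the liver, in macrophages, adipocytes and epithelia of lung and gut, and Saa4 encodes a constitutive form that the liver makes without an acute-phase stimulus. The proteins attract neutrophils and monocytes through formyl peptide receptors, and C/EBP, NF-kB and STAT3 factors are known to drive the inducible genes.

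Female C57BL/6BomTac mice, C57BL/6 in the labels, inhaled 40 mg nanoTiO2/m3, as the labels give the concentration, for 1 hr per day on 11 consecutive days, and control (air exposed) mice were handled in parallel. RNA came from a small random part of the left lung and the liver, taken 5 days after the last exposure. By the study's report the females had been time-mated but did not conceive, so they were not pregnant. The age label gives only the stage of pregnancy to which the time of sampling would correspond. Each 2-color array held the RNA of 1 mouse in Cy5 and the same universal reference RNA, a pool from mouse cell lines, in Cy3, without a dye swap. There were 7 nanoTiO2 and 6 control lung arrays and 7 nanoTiO2 and 8 control liver arrays, and 6 exposed and 6 control mice had both organs measured. Each organ lay on 4 slides of its own, so organ and slide cannot be told apart. Exposed samples were placed at the first 2 positions of their slide and control samples at the last 2, so position and exposure cannot be told apart either. Lung slide 4 held exposed mice 20 and 23 and no control. In Cy5, 61.3% to 67.5% of the spots of a lung array and 55.1% to 70.5% of those of a liver array were well above background. All 6 alveolar type 2 markers that could be tested were called higher in control lung than in control liver by limma at an adjusted p under 0.05 (30% of all probes were), and all 11 hepatocyte markers that could be tested were called lower (29.7% of all probes were). All values are log2 ratios of sample over reference unless stated otherwise, in tissue homogenate, where more RNA per cell and more cells of a type cannot be told apart.

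The 4 genes lie side by side on chromosome 7. In GRCm38.p6, RefSeq places Saa3 at chr7:46711998-46719615, Saa4 at chr7:46727992-46732603, Saa1 at chr7:46740497-46743181 and Saa2 at chr7:46751833-46754313. The first 3 genes are read on the minus strand and Saa2 on the plus strand. RefSeq lists Saa1 and Saa2 as former names of each other, and the array's transcript identifiers for the probes match the present use. The 60-base probes behind the lung values of Saa3 and Saa1 are shown because the reading of each gene rests on them, with positions in mm7, the build that matches the array's own coordinates.
Saa3 probe A_51_P337308, chr7:42888862-42888921, minus strand: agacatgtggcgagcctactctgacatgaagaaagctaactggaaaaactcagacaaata
Saa1 probe A_52_P318673, chr7:42916901-42916960, minus strand: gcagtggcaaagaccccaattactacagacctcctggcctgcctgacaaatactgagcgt
Saa1 probe A_51_P361650, chr7:42916998-42917470, minus strand: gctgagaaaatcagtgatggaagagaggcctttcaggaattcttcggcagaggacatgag
The last of these spans 473 genomic bases and therefore crosses an intron. The array's annotation lists the Saa3 probe under the transcripts of both Saa3 and Saa1. Because the members are close in sequence, binding of one gene's RNA to another's probe cannot be told apart from that gene's own signal.

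The 250 bases before the RefSeq start are shown for Saa3, the member that differed most in the lung, for Saa1 as a main hepatic form and for Saa4 as the constitutive form. Capitals mark matches to the C/EBP motif TTGCNNAA on either strand, and where the match lies on the opposite strand the capitals show its complement.
Saa3 promoter, GRCm38.p6, chr7:46715677-46715926, minus strand: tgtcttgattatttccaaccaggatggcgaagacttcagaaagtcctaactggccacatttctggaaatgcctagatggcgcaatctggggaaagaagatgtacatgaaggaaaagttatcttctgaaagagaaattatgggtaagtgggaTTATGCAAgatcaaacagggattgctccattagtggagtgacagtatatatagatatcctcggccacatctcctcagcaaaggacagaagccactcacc
Saa1 promoter, GRCm38.p6, chr7:46742981-46743230, minus strand: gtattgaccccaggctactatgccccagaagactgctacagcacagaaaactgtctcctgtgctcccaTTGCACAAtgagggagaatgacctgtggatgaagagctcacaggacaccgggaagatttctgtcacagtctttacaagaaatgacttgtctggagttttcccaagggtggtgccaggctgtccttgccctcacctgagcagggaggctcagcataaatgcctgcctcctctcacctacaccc
Saa4 promoter, GRCm38.p6, chr7:46732604-46732853, minus strand: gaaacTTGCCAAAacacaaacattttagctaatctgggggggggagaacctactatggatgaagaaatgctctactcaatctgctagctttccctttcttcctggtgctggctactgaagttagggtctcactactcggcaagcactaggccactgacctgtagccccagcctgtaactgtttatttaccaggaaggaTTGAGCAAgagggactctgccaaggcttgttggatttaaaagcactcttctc
For Saa1 and Saa3 the table's start lies inside the outermost gene boundary given above, where RefSeq lists several transcripts of each gene. All 4 promoters held the C/EBP motif, which 9.56% of 32851 promoter windows of this length held. The match of Saa1 and of Saa2 was the same, TTGCACAA, at 174 and 175 bases before the start. The match of Saa3 lay 91 bases before the start, and those of Saa4 lay 237 and 44 bases before it. None of the 4 windows held an exact match to the strict NF-kB pattern searched, to TTCNNNGAA for STAT or to TATAAA, on either strand. Of all windows, 1.41%, 7.02% and 12.4% held these patterns, in that order. No mismatch was allowed and only these 250 bases were read. Whether the genes lack sites for NF-kB or STAT factors was therefore not tested. The promoters of Saa1 and Saa2 were 94.8% identical in alignment, and the other pairs 46.7% to 52.5%.

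In the lung, the Saa3 probe was far higher in exposed mice, and the better measured Saa1 probe was higher as well. The log2 ratio of Saa3 A_51_P337308 was −0.82 at the lowest, −0.57 at the median and 0.89 at the highest of 7 nanoTiO2-exposed lungs, against −2.94, −2.43 and −2.38 in 6 control lungs. All 7 exposed lungs lay above every control lung, which held for 0.336% of the 41105 probes so compared. The mean of the exposed lungs was −0.35 ± 0.61 (SD, n = 7) and that of the control lungs −2.58 ± 0.27 (SD, n = 6). They differed by 2.23 (SE 0.24) or 4.70-fold, with a 95% interval of 3.31- to 6.67-fold. Reading the Cy5 channel alone gave 4.59-fold. Exposed mice 20 and 1 stood above the other 5 exposed mice, at 0.89 and 0.05.

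Saa1 A_52_P318673, the brighter of the Saa1 probes, had log2 ratios of −0.18, 0.05 and 1.27 at the lowest, median and highest of the 7 exposed lungs and of −1.16, −0.91 and −0.82 in the 6 control lungs. The groups did not overlap, against 0.336% of the 41105 probes with all exposed above all control lungs. The difference was 1.19 (SE 0.19), or 2.28-fold with a 95% interval of 1.73- to 3.01-fold. Mice 20 and 1 were again the highest, at 1.27 and 0.50.

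The other Saa1 probe and the Saa2 probe were near the background of the lung arrays and differed less. Saa1 A_51_P361650 was well above background in Cy5 on 7 of 7 exposed and 2 of 6 control arrays. Exposed lungs had a log2 ratio of 0.24 ± 0.29 (SD, n = 7) against −0.08 ± 0.07 (SD, n = 6) in controls, which differed by 0.32 (SE 0.11). Of the exposed lungs, 6 of 7 lay above every control, a count whose share over all probes was not computed. Saa2 A_51_P166886 was also well above background on 7 of 7 exposed and 2 of 6 control arrays.

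The log2 ratio of Saa2 in the lung ran from 0.08 to 1.25 with a median of 0.46 over 6 exposed arrays, and from −0.04 to 0.02 with a median of −0.01 over 5 control arrays. The arrays of exposed mouse 19 and control mouse 29 were left out of these values because the scanner software marked the spot as an outlier. On the arrays left the groups did not overlap, against 0.336% of 41105 probes, a share not matched for the arrays left out. The difference was 0.53 (SE 0.17), or 1.44-fold. Near the background a fold on this scale understates the change, and with the scanner software's processed signals the difference was 1.34 for Saa2.

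Saa4, the constitutive member, stayed close to background in the lung. Its probe A_51_P142529 was well above background on 4 of 7 exposed and 0 of 6 control arrays. The dimmest signal well above background on the control arrays bounds their level. The mean Cy5 signal of the exposed arrays lay 1.17-fold above that bound, with arrays not well above background included in the mean. The log2 ratios of the 6 unmarked exposed arrays ran from −0.10 to 0.50 and those of the control arrays from −0.06 to 0.05. Of these, 4 of 6 exposed lay above every control, again a count without a computed share over all probes. The second probe, A_52_P404329, was well above background on 2 of 7 exposed and 0 of 6 control arrays. Its mean Cy5 signal in exposed lungs lay 1.03-fold above the bound found in the same way. That mean also included arrays not well above background, so the value is not a lower limit. The log2 ratios of this probe differed by 0.10 (SE 0.05), with an interval of 0.987- to 1.16-fold, which includes no change.

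Saa3 had the largest lung difference of the 6 probes and Saa1 by its brighter probe the next, whereas the other probes were too near background in the control lungs to be ranked. With the scanner software's processed signals the Saa1 probes were level at 1.55. Over all probes the median lung difference was 0.0015 on the log2 scale, and 74 of 41155 probes (0.18%) were called higher and 9 (0.0219%) lower in exposed lungs by limma at an adjusted p under 0.05. These counts come from the contrast that chose the genes and are printed as background only. Within the 3 lung slides that held both groups, the mean difference ran from 1.78 to 2.40 for Saa3, from 0.90 to 1.19 for Saa1 A_52_P318673, from 0.12 to 0.26 for Saa1 A_51_P361650 and from 0.09 to 0.61 for Saa2. For Saa4 A_51_P142529 the within-slide differences ran from −0.08 to 0.46.

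**Figure D1:**
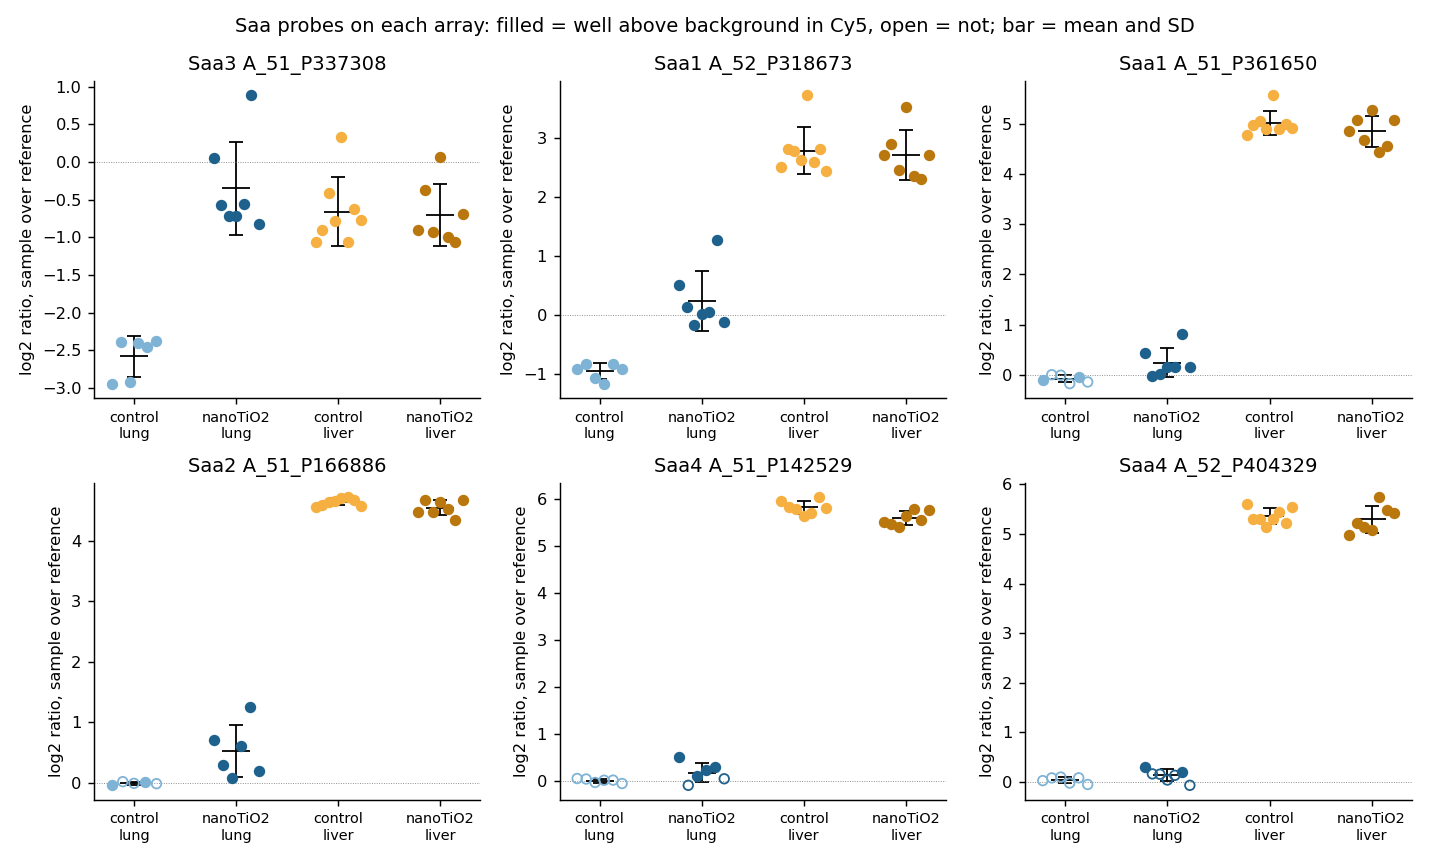
Log2 ratio of sample over reference for each of the 6 Saa probes (y axis) in the 4 groups (x axis), 1 point per array, filled where the spot was well above background in Cy5 and open where it was not, with the mean and SD as bars. The exposed lungs lie above all control lungs for Saa3 and Saa1 A_52_P318673, the liver groups overlap for every probe, and Saa4 lies near 0 in the lung and between 4.97 and 6.03 in the liver.

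Hepatocyte markers were high on the lung arrays of some exposed mice. The mean log2 ratio of 12 hepatocyte markers (albumin, fetuin and the like) was 0.51 to 1.11 on control lung arrays, 2.31, 1.81 and 1.67 on those of exposed mice 1, 19 and 13, and 0.69 to 1.06 on the other 4 exposed arrays. All 12 markers had a positive lung difference, with a median of 0.47, and none passed the test in limma. The highest Saa3 and Saa1 A_52_P318673 values came from mouse 20, whose marker mean was 0.75, and the next from mouse 1, whose marker mean was the highest.

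Without mice 1, 13 and 19 the lung difference was 2.27 for Saa3 and 1.23 for Saa1 A_52_P318673, against 2.23 and 1.19 with them. The difference without them was 0.32 for Saa1 A_51_P361650 and 0.46 for Saa2, against 0.32 and 0.53. Among the exposed lungs left, mouse 20 was at 0.81 for Saa1 A_51_P361650, against −0.02 to 0.15 in the others. For Saa2 it was at 1.25, against 0.08 to 0.30. The differences of the Saa4 probes without mice 1, 13 and 19 were 0.07 for A_51_P142529 and 0.08 for A_52_P404329, and the first fell from 0.17. The part of hepatocyte RNA in the Saa lung values was not tested.

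**Figure D2:**
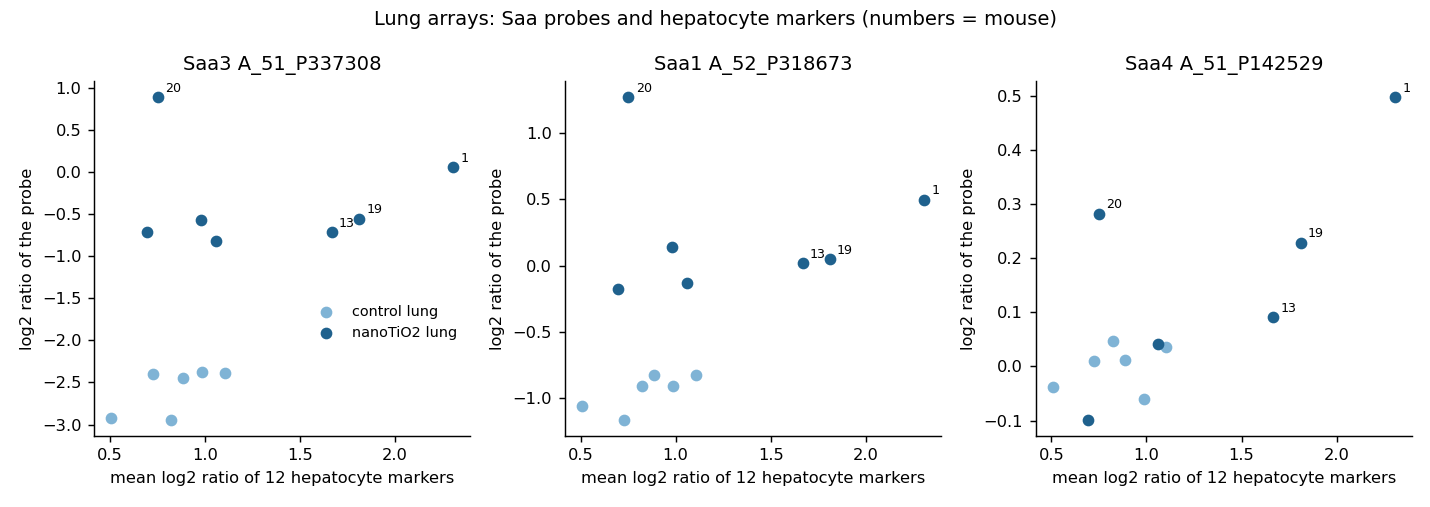
Log2 ratio of Saa3, Saa1 and Saa4 (y axes) against the mean log2 ratio of 12 hepatocyte markers (x axis) on the 13 lung arrays (12 for Saa4, without the marked spot of mouse 7), with numbers naming exposed mice 1, 13, 19 and 20. Mouse 20 is highest for Saa3 and Saa1 at a marker mean of 0.75, whereas the highest Saa4 value belongs to mouse 1 at 2.31.

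Neutrophil, macrophage, airway, alveolar and adipocyte markers were looked at in the same lungs, since several of these cells can make or answer to serum amyloid A. The neutrophil marker mean was 0.68 to 1.59 on exposed and 0.90 to 1.51 on control lung arrays, so the groups overlapped, and 0 of 12 neutrophil markers were called. Of 10 macrophage markers, 2 rose in exposed lungs and 1 fell in limma at an adjusted p under 0.05, against 0.18% and 0.0219% of all probes. Ctsk, a lysosomal protease, rose by 0.96 (adjusted p = 0.00068 from limma), and Marco, a scavenger receptor for particles, rose by 0.57 (adjusted p = 0.0092 from limma). Siglecf, a surface lectin of alveolar macrophages and eosinophils, fell by 0.70 (adjusted p = 0.011 from limma). Siglecf was not called without exposed mice 1, 13 and 19, and none of the 3 was called with median centering in place of loess or with the background model fitted on all spots. The macrophage marker mean itself overlapped, from 2.19 to 2.62 on exposed and from 2.08 to 2.62 on control arrays, and 0 of 7 airway secretory markers, 0 of the 6 alveolar type 2 markers that could be tested (Sftpd had no unmarked control lung spot) and 0 of 7 adipocyte markers were called. The adipocyte marker mean ran from 2.16 to 4.37 on exposed and from 1.58 to 3.76 on control arrays. The part of any of these cells in the Saa3 difference was not tested.

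In the liver, none of the Saa probes passed the test for an exposure difference. Saa3 had log2 ratios of −1.06, −0.90 and 0.07 at the lowest, median and highest of 7 exposed livers and of −1.06, −0.78 and 0.34 in 8 control livers. The groups overlapped almost completely. The difference was −0.04 (SE 0.20; adjusted p = 1.00 from limma), with a 95% interval of 0.725- to 1.31-fold.

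Saa1 A_52_P318673 ranged from 2.31 to 3.52 with a median of 2.70 in exposed livers and from 2.43 to 3.72 with a median of 2.70 in control livers. The difference was −0.08 (SE 0.19; adjusted p = 1.00 from limma), with a 95% interval of 0.718- to 1.25-fold. Saa1 A_51_P361650 differed by −0.16 (SE 0.13), with a 95% interval of 0.742- to 1.08-fold, and Saa2 by −0.10 (SE 0.05), with an interval of 0.867- to 1.01-fold. Both groups overlapped for each of these probes.

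Saa4 A_51_P142529 was the Saa probe whose liver log ratios differed most. Its log2 ratios were 5.40, 5.56 and 5.79 at the lowest, median and highest of 7 exposed livers and 5.64, 5.80 and 6.03 in 7 control livers, the spot of control mouse 37 having been marked as an outlier. Of the 7 exposed livers, 5 lay below every control liver, so the groups overlapped. The difference was −0.23 (SE 0.07; unadjusted p = 0.0060 and adjusted p = 1.00 from limma), which did not pass the correction. It was −0.12 in Cy5 alone (unadjusted p = 0.27 from limma) and −0.056 with median centering in place of loess. The second Saa4 probe differed by −0.06 (SE 0.10), with 2 of 7 exposed livers below every control. The shares of all probes that reach such partial counts were not computed. Within the 4 liver slides the difference of A_51_P142529 ran from −0.38 to −0.14 and that of Saa3 from −0.18 to 0.08. None of the hepatocyte markers that could be tested had a positive liver difference, and their median was −0.17. The hepatocyte marker mean was 5.89 to 6.44 on exposed and 6.25 to 6.89 on control liver arrays. The part of this lower marker signal in the Saa4 value was not tested.

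No probe at all was called in the liver, 0 of 41143 (0%), at a lowest adjusted p of 1.00 from limma, with 1040 probes at an unadjusted p under 0.05. Every exposed liver lay above every control liver for 0.0243% of probes and below for 0.0584%. None of the 6 Saa probes was among them.

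The exposure difference of the lung minus that of the liver was 2.27 (SE 0.33) for Saa3 and 1.27 (SE 0.28) for Saa1 A_52_P318673 over all 28 arrays. It was 0.63 (SE 0.16) for Saa2, 0.48 (SE 0.18) for Saa1 A_51_P361650, 0.40 (SE 0.11) for Saa4 A_51_P142529 and 0.16 (SE 0.13) for Saa4 A_52_P404329. With the background model fitted on all spots the value was 0.07 for Saa2 and turned negative for Saa1 A_51_P361650 (−0.42) and both Saa4 probes (−0.39 and −0.83), while the scanner software's processed signals gave 1.21 to 1.77 for these 4 probes. Because these values contain the lung contrast that chose the genes, the difference between the organs was not tested.

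In control mice the livers held more signal than the lungs for all 4 genes. All 6 Saa probes were lower in control lung than in control liver at an adjusted p under 0.05 in limma, against 29.7% of all 41149 probes, of which 59.6% were called in either direction, and for all 6 every control lung lay below every control liver, against 19.4% of 41073 probes. Saa3 was least different, at −1.92 (SE 0.23; adjusted p = 2.05e-08 from limma), or 3.79-fold lower in the lung. Saa1 A_52_P318673 differed by −3.73 (SE 0.20; adjusted p = 3.6e-16 from limma), or 13.3-fold lower. Saa1 A_51_P361650 and Saa2 were well above background on only 2 of 6 control lung arrays each, so their organ differences rest on lung values near background. The fitted log ratios gave 34.1-fold and 25.2-fold lower values in the lung, and Cy5 alone gave 59.2-fold and 135-fold.

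Saa4 was not well above background on any control lung array and was so on all 8 control liver arrays for both probes. Against the dimmest detected signal of the lung arrays it was at least 133-fold lower in the lung by A_51_P142529 and at least 51.5-fold lower by A_52_P404329 (adjusted p = 3.9e-29 and 1.6e-28 from limma). These bounds read the Cy5 signal alone.

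The exposed lungs lay close to the livers in Saa3 but not in the other members. From lowest to highest, the mean Saa3 log2 ratios were those of control lung, exposed liver, control liver and exposed lung, and all but the control lungs overlapped their neighbours. The exposed lung mean was 0.31 above the control liver mean, or 1.24-fold, with 1 of 7 exposed lungs above every control liver. For Saa1 A_52_P318673 the exposed lungs stayed 5.83-fold below the control livers in log ratio and 20.4-fold in Cy5 alone, with no overlap in log ratio. For Saa2 the exposed lungs stayed 17.4-fold below in log ratio and 87.1-fold in Cy5 alone.

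Within single mice the Saa3 difference between the organs was negative in all control mice and varied in sign among exposed mice. Lung minus liver for Saa3 was −1.93 ± 0.59 (SD, n = 6) in control mice and 0.44 ± 0.94 (SD, n = 6) in exposed mice, of which 4 had the higher value in the lung, ranging from −0.78 to 1.95. Mouse 20 had the highest lung and the lowest liver value of the exposed mice for Saa3, 0.89 and −1.06. For Saa1 A_52_P318673 the lung stayed below the liver in every mouse, by −3.79 ± 0.40 (SD, n = 6) in control and −2.42 ± 0.82 (SD, n = 6) in exposed mice. These values share the lung arrays that chose the genes, and the change in them was not tested.

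**Figure D3:**
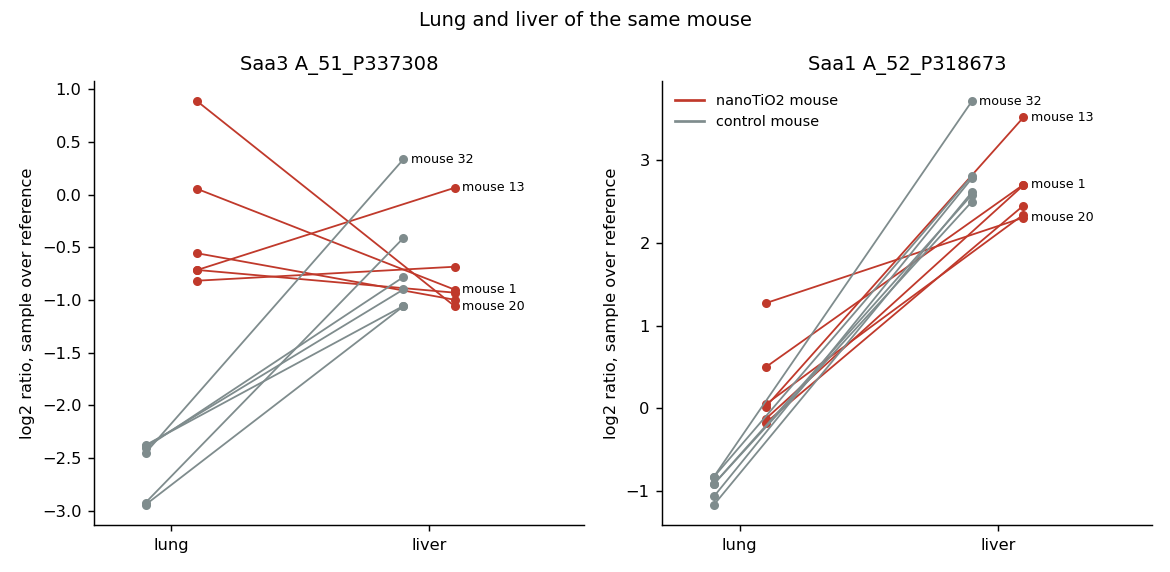
Log2 ratio of Saa3 (left) and Saa1 A_52_P318673 (right) in lung and liver (x axis) of the 12 mice with both organs, 1 line per mouse, red for exposed and grey for control mice. All control lines rise from lung to liver for Saa3, whereas those of 4 of 6 exposed mice fall, and for Saa1 all lines rise.

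Across mice of a group, none of the 6 relations computed between lung and liver values of the same mouse had an adjusted p under 0.05 by exact permutation, with adjustment over the 8 relations computed in all. Saa3 in lung against liver gave r = −0.47 and rho = −0.77 in 6 exposed mice (exact permutation p = 0.26 and 0.10). For Saa2 only 5 mice per group had both values, and no relation was computed. As a description, with no test since these lung values chose the genes, Saa1 A_52_P318673 and Saa3 correlated at r = 0.99 and rho = 0.86 over 7 exposed lungs and at r = 0.19 over 6 control lungs. Without mice 20 and 1, the exposed mice farthest from the median in Saa1, r was 0.78. The Saa3 probe is also listed under the Saa1 transcript.

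Mice 13 and 32 had the highest liver signals of the acute-phase members. For Saa3 the log2 ratio was 0.07 in exposed mouse 13 and 0.34 in control mouse 32, against −1.06 to −0.37 in the other 13 livers. For Saa1 A_52_P318673 it was 3.52 and 3.72, against 2.31 to 2.90. For both Saa4 probes these mice ranked between 10 and 12 of the livers in Cy5 signal, within the range of the others.

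The Saa2 log ratio did not set these livers apart, at 4.65 and 4.71 against 4.35 to 4.72, but its Cy5 signal did, at 14.4 and 14.6 against 12.6 to 13.6 on the log2 scale. The Cy3 signal of the same spots was 9.72 and 9.93 against 8.03 to 8.90, although every array carried the same reference RNA. Both mice lay on liver slide 3, whose other arrays, of mice 19 and 34, were not among the high ones. The mean of 12 neutrophil markers was 1.51 in the liver of mouse 32, with 11 markers well above background, against −0.18 to 0.19 in all other livers, mouse 13 included at 0.15. The part of neutrophils or of the slide in these values was not tested.

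The Cy3 signal of the reference differed between organs at several Saa probes. Net of local background, the Cy3 signal of the Saa2 spot was 19 to 36.5 on lung arrays and 217 to 835 on liver arrays, and that of Saa1 A_52_P318673 was 211 to 373.5 and 762 to 1201. Cy3 at the Saa4 spots was 7 to 18.5 and 60 to 157 for A_51_P142529, and 4 to 13 and 17 to 57 for A_52_P404329. At the Saa3 spot it was 1455 to 2280 and 1381.5 to 2022, with no such gap. The median difference in Cy3 between liver and lung over all probes was −0.016 on the log2 scale. Read in Cy5 alone, control lung was accordingly lower than control liver by 135-fold for Saa2, 42.8-fold for Saa1 A_52_P318673 and 4.09-fold for Saa3. For Saa4, with lung values at background, Cy5 alone gave 138-fold by A_51_P142529 and 53.4-fold by A_52_P404329. The log ratio gave 56.3-fold and 39.9-fold for these probes, so its organ differences were smaller for Saa1, Saa2 and Saa4. The cause was not tested. No Saa spot was saturated in Cy5.

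**Figure D4:**
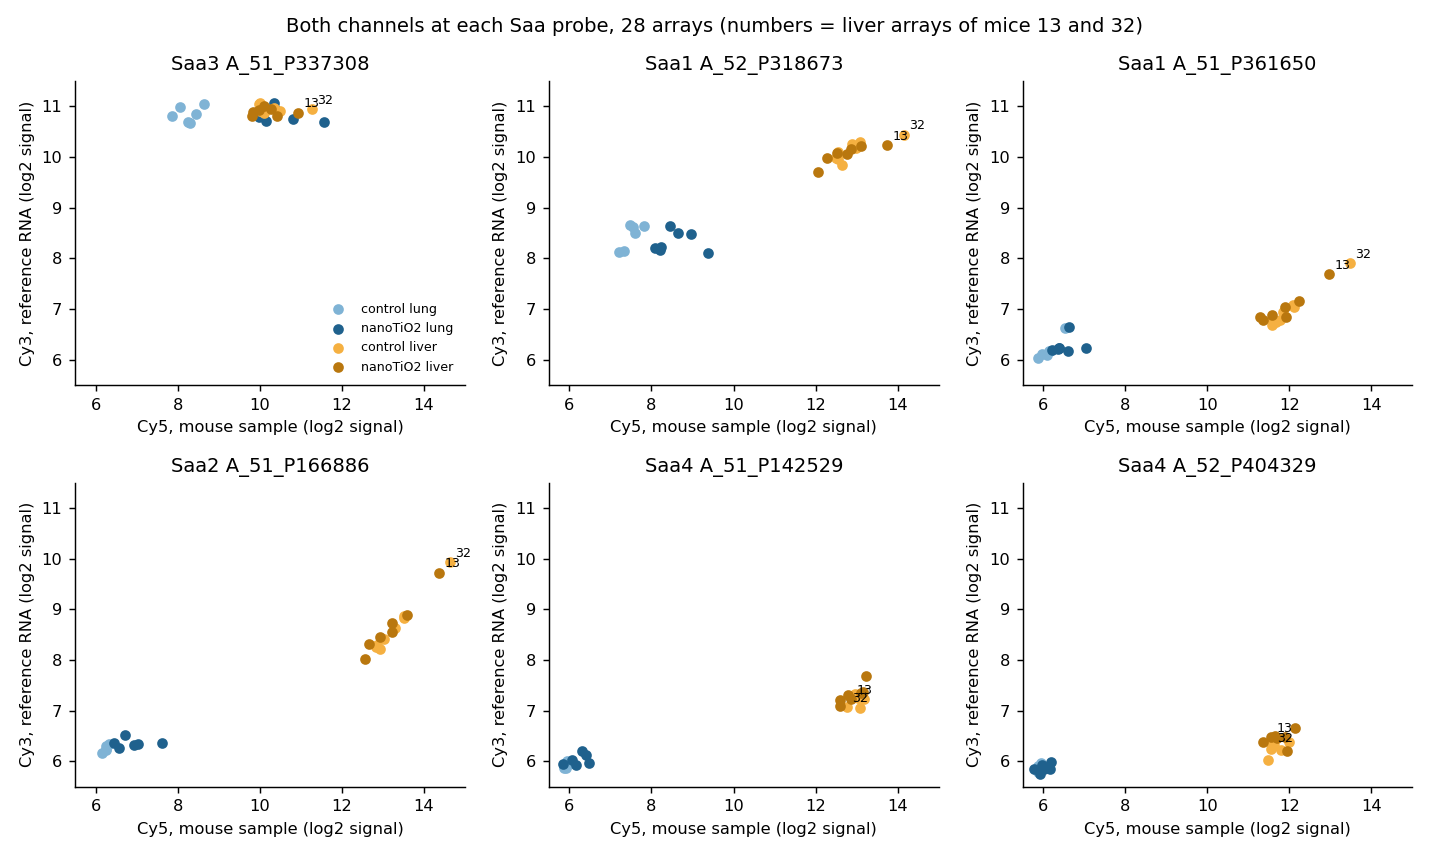
Cy5 signal of the mouse sample (x axis) against Cy3 signal of the reference RNA (y axis), both in log2 units after normalization, for the 6 Saa probes on 28 arrays. Cy3 is higher on liver than on lung arrays at the Saa1 and Saa2 probes, where mice 13 and 32 are the highest livers in Cy5. At Saa3 it stays level between 10.7 and 11.1. At the Saa4 probes Cy3 is also higher on liver than on lung arrays.

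Few of the genes that act around serum amyloid A passed the test. Of 12 cytokines and receptors that induce it, 0 were called in the lung and 0 in the liver, against 0.202% of all probes in the lung, with median differences of 0.05 and −0.04. In the lung the largest differences were those of Il1b, at −0.30 (SE 0.25), and Tnf, at 0.26 (SE 0.07). Of 9 transcription factors 0 were called in either organ, with a lung median of −0.06, the largest lung differences being those of Cebpd, at 0.22 (SE 0.16), and Sp1, at −0.22 (SE 0.06). Of 10 receptors for serum amyloid A or their partners 0 were called, with a lung median of −0.04. Cd14, the co-receptor of bacterial lipid sensing, had a difference of 0.54 (SE 0.10; adjusted p = 0.056 from limma), and Fpr1, a formyl peptide receptor, one of −0.44 (SE 0.10; adjusted p = 0.11 from limma). With the test limited to probes well above background, Cd14 was called (adjusted p = 0.040 from limma).

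Among 12 proteins of HDL, the carrier of serum amyloid A, 0 were called in lung or liver, with medians of 0.02 and −0.18. The largest lung differences were those of Apoa2, at 0.80 (SE 0.39), and Apoa1, at 0.51 (SE 0.26). Their SDs were 1.07 and 0.73 in exposed against 0.20 and 0.08 in control lungs. The lung median of the HDL list was −0.02 when exposed mice 1, 13 and 19 were left out. Of 16 other acute-phase proteins 3 rose in exposed lungs and 0 fell, against 0.18% and 0.0219% of all probes, with a median difference of 0.49 over the list against 0.0015 over all probes. Steap4, a metalloreductase, rose by 0.70 (SE 0.10; adjusted p = 0.0049 from limma), C3, the central complement component, by 0.54 (SE 0.09; adjusted p = 0.032) and Itih4, a plasma protease inhibitor, by 0.54 (SE 0.07; adjusted p = 0.0028). Without exposed mice 1, 13 and 19, the lungs with high hepatocyte markers, 0 of the 16 were called over the 4 exposed arrays left, and the median was 0.21. C3 was not called with slide as a fixed block, and none of the 16 was called with median centering in place of loess or with the background model fitted on all spots. In the liver 0 of the 15 that could be tested were called and their median was −0.15.

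None of the nearest neighbours of the Saa genes on chromosome 7 passed the test with exposure, against 0.202% of all probes in the lung and 0% in the liver. At these shares, so few genes would rarely hold a call. Saal1, Tph1 and Sergef on one side and Hps5, Gtf2h1 and Ldha on the other had lung differences of −0.04 to 0.20 and liver differences of −0.08 to 0.08. Ldha, lactate dehydrogenase A, had the largest lung difference, at 0.20 (SE 0.09).

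Within the groups, the genes whose values followed Saa3 most closely over the 13 lung arrays were sought among 17801 probes well above background on all of them, as deviations from the group means. Saa1 A_52_P318673 came first at r = 0.91, followed by Edg5 (0.89), Mtss1 (0.88), Soat1 (0.85) and Clec7a (0.85). Their own lung differences were −0.02 to 0.09 apart from that of Saa1. Over the 15 liver arrays, Saa1 A_52_P318673 was followed most closely by Saa3 (r = 0.93), then Ccrl2 (0.87), Zfand5 (0.85), AK031960 (0.85) and Tceal1 (0.83), among 14993 probes. Saa2 came at rank 444 with r = 0.58 in log ratio, and Saa4 A_52_P404329 had r = −0.49. The highest single values, of mouse 20 in the lung and of mice 13 and 32 in the liver, enter these correlations, and the arrays share the reference RNA and slides.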

How the data were processed

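The authors deposited the output of Agilent Feature Extraction (version 9.5.3.1 for lung, 10.1.1.1 for liver arrays) as spot intensity values that are not normalized, and a table of LOWESS-normalized log2 ratios, used as an alternative. Median spot intensities were corrected by normexp (offset 50), leaving out spots that the software marked as outliers, and normalized within each array by loess (span 0.3). Groups were taken from the labels and compared with limma 3.58.1 in R 4.3.3 (lmFit, eBayes), each organ apart. Benjamini-Hochberg adjustment ran over all probes, with a threshold of 0.05. In simulated data 200 of 31796 probes for lung and 200 of 29967 for liver were given a log2 change of 1. Of these, 99% were called for lung and 98% for liver, with 4 and 12 false calls. Smaller changes, such as the Saa differences in the liver, were not simulated. The members, gene lists and tests were chosen with earlier results of these data known. Every Saa probe was named; of each list, the called genes or else the 2 largest differences, of a gene the probe with the highest mean signal; 5 genes by likeness; and 3 neighbours on each side. Hpx and Lif were not among the probes. The number of arrays limits the precision. Mice were separate animals, and same-mouse pairing of organs came from the labels, with correlations of deviations of −0.13 to 0.34 over 10993 probes. Sequences came from the deposited array files and RefSeq.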

Additional observations from a re-analysis of the deposited data

Results flagged for a closer look

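Of 24 sets of arrays tested, 1 set per probe and group, 3 held a single value far from the others, all in the control liver of mouse 32 (n = 8), where chance gives about 1 in 20. For Saa1 A_51_P361650 the log2 ratio was 5.57, with the nearest control liver at 5.07. For Saa1 A_52_P318673 it was 3.72, with the nearest at 2.81, and for Saa3 it was 0.34, with the nearest at −0.41. The 3 values come from 1 array.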

How the results depend on the processing

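Leaving out each array in turn gave lung differences of 2.03 to 2.31 for Saa3, 1.02 to 1.26 for Saa1 A_52_P318673, 0.23 to 0.37 for Saa1 A_51_P361650, 0.38 to 0.62 for Saa2, and 0.11 to 0.23 and 0.07 to 0.13 for the Saa4 probes. Other settings gave 2.05 to 2.51 for Saa3 and 1.02 to 1.55 for Saa1 A_52_P318673. Scanner-processed signals raised the Saa4 lung differences to 1.27 and 0.86. No Saa probe was called in the liver and all 6 were called between organs under every alternative, where 0 and 6 were also the range on leaving out arrays. With organs of the same mouse paired, the mouse as a block changed no call, and Saa3 differed by −1.93 between control organs. Liver differences on leaving out arrays ran from −0.17 to 0.10 for Saa3 (0.10 without control mouse 32, 0.010 without exposed mouse 19 and 0.021 without exposed mouse 20), from −0.21 to 0.06 for Saa1 A_52_P318673 (0.056 without mouse 32), and from −0.23 to −0.08, −0.12 to −0.07, −0.26 to −0.19 and −0.14 to −0.01 for Saa1 A_51_P361650, Saa2 and the Saa4 probes. The liver sign turned with the background model fitted on all spots (Saa1 A_51_P361650 0.65, Saa1 A_52_P318673 0.13, Saa2 0.33, Saa4 0.49 and 0.87), with median centering (Saa1 A_52_P318673 0.090, Saa2 0.067, Saa3 0.11, Saa4 A_52_P404329 0.068) and for Saa4 A_52_P404329 in Cy5 alone (0.10), also without mice 13 and 32 (0.13). Lung minus liver differences on leaving out arrays ran from 2.00 to 2.46 for Saa3 and 1.03 to 1.44 for Saa1 A_52_P318673, and on all spots the sign turned for Saa1 A_51_P361650 (−0.42) and Saa4 (−0.39 and −0.83), and Saa2 gave 0.07. The 3 listed genes called in the lung became 0 on all spots, 0 with median centering and 0 without mice 1, 13 and 19. They became 2 with slide as a fixed block, without C3, and 5 among probes well above background, with Cd14 and Serpina3n added. The fitted Cy5 background mean was −5.16 to −4.12 on lung and −8.44 to −6.20 on liver arrays, and reached −609 and −972 on all spots. The alternatives without mice 13 and 32 or mice 1, 13 and 19 were chosen after seeing the data, and the cause of each change was not tested. Signal over background limits the lung values of Saa2 and Saa4.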
